A study of Mus musculus with 8 samples.

Results

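Collagens are the main structural proteins of the extracellular matrix, and the 44 mouse genes that encode a numbered collagen alpha chain were described here in sorted mammary epithelial cells. Members were all genes whose symbol has the form Col, a type number, a and a chain number, which held for 44 of the 49671 genes in the table. By type number, 11 were placed in a fibrillar class (types I, II, III, V, XI, XXIV and XXVII), 6 in a basement membrane class (type IV), 5 in an anchoring and transmembrane class (types VII, XIII, XVII, XXIII and XXV) and 22 in a class of other collagens. Of these, 39 reached a value of 40 or more in 2 or more of the 8 libraries and were tested: 9 fibrillar, 6 basement membrane, 5 anchoring and transmembrane and 19 other members. Col2a1, Col24a1, Col19a1, Col22a1 and Col26a1 were under that minimum and were not tested. On the luminal libraries alone 35 members reached it, so 4 members entered the tests only through the basal libraries.

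RNA sequencing was done on cells sorted from the mammary gland of female mice of mixed genetic backgrounds, in 4 groups of 2 libraries. All cells lacked CD45, CD31 and CD140a, the surface markers of leukocytes, endothelial cells and fibroblasts, and carried CD24. Luminal cells, which line the ducts, were taken as CD29low, with 40000 cells for each library. Basal cells, the outer myoepithelial layer that sits on the basement membrane, were taken as CD29high, with 5000 cells for each library. The CD1 luminal and CD1 basal groups came from CD1 mice and were not gated on GFP. The DNp63 luminal and DNp63 basal groups were the GFP+ cells of K8rtTA/TetOCre/Rosa26-DNp63-IRES-GFP mice, in which the promoter of keratin 8, a luminal keratin, drives the doxycycline-dependent activator of Cre, and recombined cells express DNp63, the transcription factor of basal epithelium, together with GFP. For these libraries the sources used here state neither the age of the animals, nor the doxycycline schedule, nor whether a group's 2 libraries were made from different mice, so p-values measure the spread between these libraries, which may be technical. The comparison of mice also compares strain and the GFP gate, which cannot be told apart from DNp63 expression, and the gates differ in cell number.

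All collagen molecules are made of 3 alpha chains wound into a triple helix, and their classes differ in where they lie. Fibrillar collagens form the fibres of the stroma and are typically made by fibroblasts. Collagen IV forms the sheet-like network of the basement membrane, collagen XVII spans the basal cell membrane at hemidesmosomes, and collagen VII forms the anchoring fibrils that tie the basement membrane to the stroma below.

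The deposited values are read counts scaled to 20000000 per library and rounded up, so all levels below are on that scale. The value of 1 read ranged from 2.775 to 4.834 between libraries, which corresponds to 4136986 to 7206703 reads assigned to genes. Trp63, which encodes p63, had values of 61 and 45 in the CD1 luminal, 1297 and 1460 in the DNp63 luminal, 5457 and 7079 in the CD1 basal and 8088 and 8306 in the DNp63 basal libraries. The markers of basal epithelium summed to between 1607 and 3701 in luminal and between 173075 and 194754 in basal libraries, and the luminal markers to between 214473 and 245035 in luminal and between 14712 and 37094 in basal libraries. Both gates therefore carried the markers of their labels. The 12 endothelial markers summed to between 49277 and 69229 in the basal and between 2839 and 4694 in the luminal libraries, although both gates excluded CD31. The 2 CD1 luminal libraries stood apart in stromal genes, which touches the fibrillar class as described there.

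The sequences upstream of 5 members are shown because Col17a1 and Col7a1 had among the largest differences between the gates, Col4a5 and Col4a6 are transcribed away from each other from 1 short interval, and Col8a1 moved the other way. The promoter table of RefSeq on GRCm38.p6 held 35 of the 44 members. Only the bases before the first annotated transcript start are printed, in the direction of transcription, from chr19:47692095-47692292 (Col17a1, minus strand), chr9:108953336-108953585 (Col7a1, plus), chrX:141475169-141475384 (Col4a5, plus), chrX:141474077-141474326 (Col4a6, minus) and chr16:57754738-57754987 (Col8a1, minus). Capitals mark GGGCGG, the CCAAT box and the TATA box word TATAAA, each on either strand, and no match in these 5 stretches overlaps another.
Col17a1: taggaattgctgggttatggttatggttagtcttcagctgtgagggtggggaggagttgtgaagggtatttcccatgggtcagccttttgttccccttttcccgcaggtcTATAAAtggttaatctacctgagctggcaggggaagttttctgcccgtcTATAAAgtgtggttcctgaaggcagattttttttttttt
Col7a1: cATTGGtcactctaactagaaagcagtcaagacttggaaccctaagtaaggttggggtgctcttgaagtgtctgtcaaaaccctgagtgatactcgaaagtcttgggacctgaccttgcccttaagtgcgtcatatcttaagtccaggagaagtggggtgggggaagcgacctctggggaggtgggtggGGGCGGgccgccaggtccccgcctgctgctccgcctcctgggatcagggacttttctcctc
Col4a5: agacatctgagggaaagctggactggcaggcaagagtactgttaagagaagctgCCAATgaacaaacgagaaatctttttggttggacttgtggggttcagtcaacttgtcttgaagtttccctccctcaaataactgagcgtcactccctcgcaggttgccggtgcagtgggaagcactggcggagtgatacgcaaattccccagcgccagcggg
Col4a6: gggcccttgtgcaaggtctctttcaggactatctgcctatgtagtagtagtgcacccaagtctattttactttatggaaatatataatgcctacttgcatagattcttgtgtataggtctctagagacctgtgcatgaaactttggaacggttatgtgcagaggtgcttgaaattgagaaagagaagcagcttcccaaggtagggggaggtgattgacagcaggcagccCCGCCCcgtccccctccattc
Col8a1: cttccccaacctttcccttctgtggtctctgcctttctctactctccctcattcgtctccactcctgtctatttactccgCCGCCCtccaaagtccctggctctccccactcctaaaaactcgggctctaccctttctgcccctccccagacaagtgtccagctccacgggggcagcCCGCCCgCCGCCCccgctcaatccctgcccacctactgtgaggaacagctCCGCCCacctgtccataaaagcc
The Col17a1 stretch held TATAAA at both capital runs, and its GC content of 45.5% was lower than the 60.8% of the Col8a1 stretch, which held GGGCGG, read on the other strand, 4 times. The Col7a1 stretch held 1 GGGCGG and 1 CCAAT, Col4a5 held 1 CCAAT and Col4a6 held 1 GGGCGG. Over the full windows of 300 bases, GGGCGG was found for 22 of the 35 members and in 35.7% of the 32851 windows in the table, CCAAT for 13 members and in 37.4% of windows, and TATAAA for 5 members and in 13.6% of windows. These are matches of letters, and no binding was measured.

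Most collagen genes were higher in basal than in luminal cells, in both kinds of mouse. In CD1 mice 25 of the 39 tested members were higher in the basal gate and 1, Col8a1, was lower at an adjusted p under 0.05 (limma on log2 values, two-sided, adjusted by Benjamini-Hochberg over 16900 genes), beside 24.2% of all tested genes called higher and 20.1% called lower. In DNp63 mice 28 members were higher and Col8a1 was lower, beside 24.9% and 24.4% of all tested genes. The median difference of the 39 members was 1.97 on the log2 scale in CD1 mice and 3.01 in DNp63 mice, while the medians over all tested genes were -0.01 and -0.08. Among the 35 members that reached the minimum on the luminal libraries alone, 23 were higher and 1 lower in CD1 mice, and 24 were higher and 1 lower in DNp63 mice. Their median differences were 1.72 in CD1 and 2.99 in DNp63 mice. Fewer cells of a type and less RNA per cell cannot be told apart in these bulk samples.

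The 2 gate differences rest on separate libraries, but their calls share a pooled error. Over the 39 members the differences correlated at r = 0.87, a description across genes, which are not independent replicates. The 39 include Col13a1, Col28a1, Col6a4 and Col6a5, which entered the tests only through the basal libraries. That way of entry favours a higher basal level in both mice. The sign was shared by 35 of 39 members. Of the members called in CD1 mice, 92.3% were also called in DNp63 mice, and of those called in DNp63 mice, 82.8% were called in CD1 mice. The correlation, the shared signs and these shares were not computed over all tested genes, so they do not show a trait of the collagen genes.

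**Figure D1:**
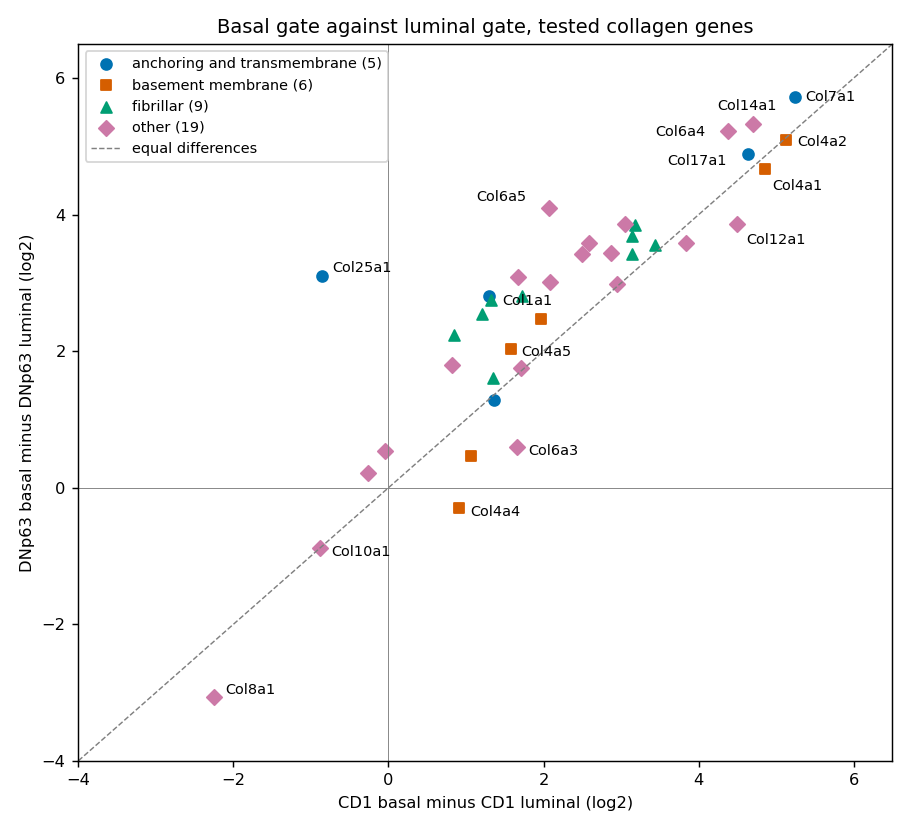
Each point is 1 of the 39 tested collagen genes, with its basal minus luminal difference on the log2 scale in CD1 mice on the x axis and in DNp63 mice on the y axis, by class; the dashed line marks equal differences. Col7a1, Col4a2, Col4a1 and Col17a1 sit at the upper right, Col8a1 farthest to the lower left, and Col25a1, with -0.86 in CD1 and 3.10 in DNp63 mice, lies far above the line.

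As a share of all deposited values, the 44 collagen genes made up between 0.0689% and 0.284% in the 4 luminal libraries, 0.689% and 0.899% in the CD1 basal and 1.09% and 1.36% in the DNp63 basal libraries. Levels per kilobase divide by all annotated exons of a gene joined, so ranks between genes depend on the annotation. Per kilobase of exon, Col4a1 had the highest mean level of any member in both basal groups, 3968 in CD1 and 4858 in DNp63 cells. Col4a2 was next, at 2975 and 3546. Col17a1 was at rank 3 in CD1 basal cells, with 1835 per kilobase, and at rank 4 in DNp63 basal cells, with 2674, after Col1a1. In the luminal groups Col1a1 had the highest mean per kilobase, 929 in CD1 and 535 in DNp63 cells, but the CD1 value was the mean of 2 libraries that differed 16.6-fold. Col8a1, at 435 and 428 per kilobase, and Col4a5, at 209 and 204, were also among the 5 highest in both luminal groups.

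Col17a1 encodes collagen XVII, the transmembrane collagen of hemidesmosomes, and lies at chr19:47646344-47692094 on the minus strand. Its values were 398 and 464 in the CD1 luminal, 539 and 548 in the DNp63 luminal, 11171 and 10895 in the CD1 basal and 14730 and 17419 in the DNp63 basal libraries. Every basal library lay far above every luminal one, and replicates lay close together. Col17a1 was higher in basal cells by 4.64 ± 0.13 (log2, SE, adjusted p = 2.17e-07, limma) in CD1 mice, and by 4.89 ± 0.13 (adjusted p = 1.53e-07, limma) in DNp63 mice.

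Col7a1 encodes collagen VII of the anchoring fibrils and lies at chr9:108953586-108984875 on the plus strand. Its values were 93 and 178 in the CD1 luminal, 281 and 157 in the DNp63 luminal, 4730 and 5769 in the CD1 basal and 9610 and 13213 in the DNp63 basal libraries. The luminal libraries of both mice overlapped, and the basal libraries were all higher. The difference was 5.24 ± 0.34 (log2, SE, adjusted p = 9.9e-06, limma), or 37.8-fold, in CD1 mice, and 5.72 ± 0.34 (adjusted p = 4.45e-06, limma) in DNp63 mice, where it was the largest of any member.

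The other members of the anchoring and transmembrane class encode collagens that cross the cell membrane. Col23a1 had values of 337 and 512 in the CD1 luminal, 458 and 270 in the DNp63 luminal, 912 and 1306 in the CD1 basal and 928 and 784 in the DNp63 basal libraries. Its basal and luminal libraries did not overlap, and it was higher in basal cells by 1.36 ± 0.31 (log2, SE, adjusted p = 0.0069, limma) in CD1 and by 1.29 ± 0.31 (adjusted p = 0.00825, limma) in DNp63 mice. The CD1 call was lost without CD1 basal replicate 2 (adjusted p = 0.0598, limma), and the DNp63 call without DNp63 basal replicate 1 (0.0597) or DNp63 luminal replicate 2 (0.0624). Col13a1, low everywhere and tested only because its basal libraries reached the minimum, had values of 4 and 30 in the CD1 luminal, 23 and 20 in the DNp63 luminal, 28 and 68 in the CD1 basal and 140 and 271 in the DNp63 basal libraries. It was called in DNp63 mice only, at 2.81 ± 0.62 (adjusted p = 0.00557, limma), beside 1.29 ± 0.62 (adjusted p = 0.123, limma) in CD1 mice, and the difference between the 2 was not called (adjusted p = 0.629, limma interaction). The CD1 difference of Col13a1 without CD1 luminal replicate 2 was 2.13 and was called (adjusted p = 0.0211, limma). Over the class, 3 of 5 members were higher in the basal gate in CD1 mice and 5 of 5, Col13a1 included, in DNp63 mice, beside 24.2% and 24.9% of all tested genes.

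**Figure D2:**
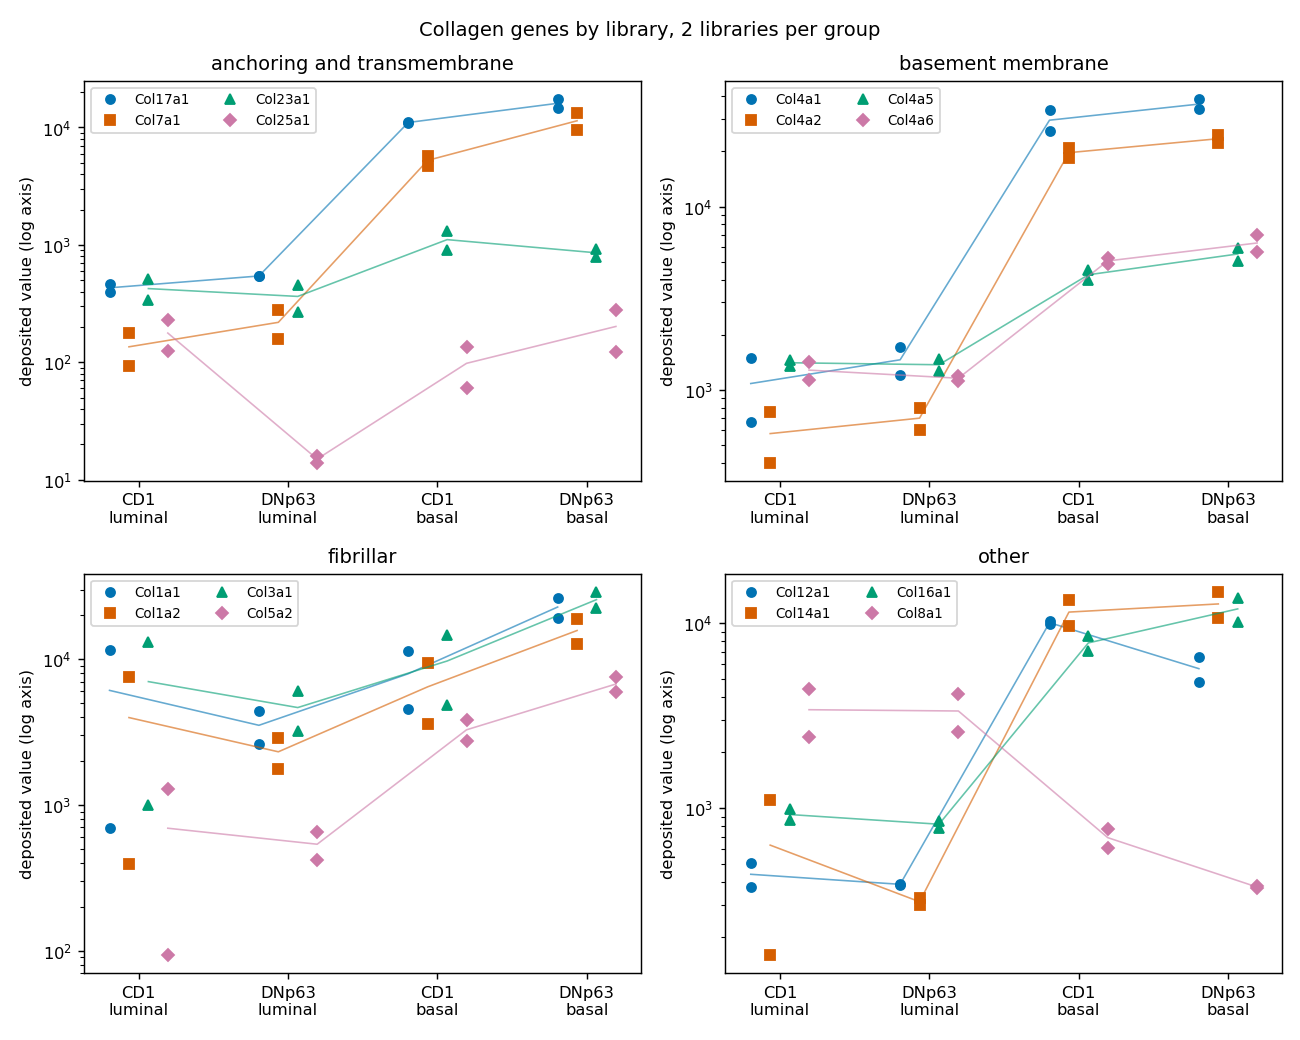
Deposited values (log axis) of 4 members of each class in the 8 libraries, 1 point per library, with lines through the group means. Col17a1, Col7a1, Col4a1 and Col4a2 rise from luminal to basal groups with little spread, the 2 CD1 luminal points of Col1a1 (692 and 11506) lie far apart, and Col8a1 runs the other way.

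The collagen IV genes are paired head to head in the genome. Col4a1 and Col4a2, on chromosome 8, encode the chains of the network found in nearly all basement membranes. Col4a1 (chr8:11198423-11312826, minus strand) had values of 664 and 1501 in the CD1 luminal, 1707 and 1210 in the DNp63 luminal, 25724 and 33510 in the CD1 basal and 33966 and 38555 in the DNp63 basal libraries. Col4a2 (chr8:11312805-11449287, plus strand) had values of 401 and 753, 794 and 607, 18454 and 20935, and 22237 and 24700 in the same order of groups. For both genes the basal libraries were more than an order of magnitude above the luminal ones, and the luminal libraries of the mice overlapped. Col4a1 was higher in basal cells by 4.85 ± 0.34 (log2, SE, adjusted p = 1.44e-05, limma) in CD1 and 4.68 ± 0.34 in DNp63 mice, and Col4a2 by 5.13 ± 0.26 (adjusted p = 3.03e-06, limma) and 5.09 ± 0.26. Per kilobase of exon, Col4a1 stood at 1.24 to 1.91 times Col4a2 in the 8 libraries, with the 4 basal libraries, at 1.24 to 1.42, below the 4 luminal ones, at 1.47 to 1.91. Their annotated ends overlap by 22 bases, and without stated strand use in counting, reads there could go to either gene.

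Col4a5 and Col4a6, on the X chromosome, encode chains of basement membranes around smooth muscle and glands, and their starts lie 1308 bases apart. Col4a5 (chrX:141475385-141689234, plus strand) had values of 1355 and 1456 in the CD1 luminal, 1469 and 1272 in the DNp63 luminal, 3983 and 4508 in the CD1 basal and 5058 and 5966 in the DNp63 basal libraries. Col4a6 (chrX:141165403-141474076, minus strand) had values of 1135 and 1427, 1191 and 1123, 5265 and 4839, and 5682 and 6977. Both had smaller gate differences than the chromosome 8 pair: Col4a5 was higher in basal cells by 1.57 ± 0.14 (log2, SE, adjusted p = 5.55e-05, limma) in CD1 and 2.03 ± 0.14 in DNp63 mice, and Col4a6 by 1.97 ± 0.15 (adjusted p = 2.36e-05, limma) and 2.47 ± 0.15. The luminal libraries of Col4a5 lay within 1272 to 1469, and those of the 2 mice overlapped. The size of the gate difference was not tested between the 2 pairs.

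Col4a3 and Col4a4, the chromosome 1 pair known from kidney and lung basement membranes, were low. Their annotated starts are separated by 71 bases. Col4a3 ranged from 38 to 106 and Col4a4 from 103 to 344 over the 8 libraries. Col4a3 was called in CD1 mice at 1.06 ± 0.33 (log2, SE, adjusted p = 0.0279, limma), a call lost without CD1 basal replicate 1 (0.106), CD1 basal replicate 2 (0.0879) or CD1 luminal replicate 2 (0.106), and was not called in DNp63 mice, at 0.47 ± 0.33 (adjusted p = 0.266, limma). A fit without a filter also lost the CD1 call of Col4a3 (adjusted p = 0.0518, limma). Col4a4 differed by 0.91 ± 0.34 (adjusted p = 0.0603, limma) in CD1 and -0.30 ± 0.34 (adjusted p = 0.497, limma) in DNp63 mice. With 1 library left out, the CD1 difference of Col4a4 ranged from 0.53 to 1.31. It was 1.29 without CD1 basal replicate 1 and 1.31 without CD1 luminal replicate 2. Over the class, 5 of 6 members were higher in the basal gate in CD1 mice and 4 of 6 in DNp63 mice. These and the marker counts that follow stand beside 24.2% and 24.9% of all tested genes called higher. Of the 12 endothelial markers, 11 were also higher in the basal gate in each kind of mouse, among them Cdh5, at 348, 323, 247 and 173 in the luminal and 15016, 14684, 15106 and 11042 in the basal libraries, and 8 of 9 pericyte markers were higher in each. Of 8 adipocyte markers, 8 were higher in the basal gate in CD1 and 6 in DNp63 mice. Their sums were 666, 739, 522 and 518 in the luminal and 20860, 26430, 22008 and 14922 in the basal libraries, 33.7 and 35.5 times as large in the basal gate, and most of each sum was Fabp4. The other 7, a sum taken after the values were seen, gave between 105 and 164 in the luminal and between 955 and 4565 in the basal libraries, and Lep was at 0 in all 4 luminal libraries. The part of these markers in the collagen IV differences was not tested. Between the basal groups the endothelial sum was 0.848 times and the collagen IV sum 1.22 times as large in DNp63 as in CD1 cells. No collagen IV gene and no endothelial marker was called there, and these ratios do not describe the difference between the gates.

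Fibrillar collagen genes had the widest spread between the replicates of the CD1 luminal group, and these libraries decided much of what could be called. Col1a1 and Col1a2 encode the chains of collagen I, and Col3a1 that of collagen III. Col1a1 (chr11:94936224-94953042, plus strand) had values of 692 and 11506 in the CD1 luminal, 4413 and 2614 in the DNp63 luminal, 4565 and 11302 in the CD1 basal and 19135 and 26372 in the DNp63 basal libraries. Col1a2 had values of 394 and 7546, 2867 and 1757, 3562 and 9342, and 12611 and 18792. Col3a1 had values of 993 and 13018, 6086 and 3213, 4853 and 14544, and 22254 and 28891. For all 3 genes CD1 luminal replicate 2 lay well above CD1 basal replicate 1 and near CD1 basal replicate 2, so the CD1 gates overlapped, while both DNp63 basal libraries were above all others.

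In CD1 mice Col1a1 differed between the gates by 1.33 ± 1.05 (log2, SE, adjusted p = 0.337, limma), Col1a2 by 1.72 ± 1.1 (0.237) and Col3a1 by 1.21 ± 1.01 (0.363). Without CD1 luminal replicate 1 these became -0.69, -0.39 and -0.64, and without CD1 luminal replicate 2 they became 3.36, 3.84 and 3.07 with adjusted p of 0.00101, 0.00064 and 0.00349 (limma). The direction in CD1 mice was thus set by which of the CD1 luminal libraries was used. In DNp63 mice the differences were 2.75 ± 1.05 (adjusted p = 0.0562, limma), 2.80 ± 1.1 (0.0619) and 2.55 ± 1.01 (0.0631). With either CD1 luminal library left out, which removes their spread from the pooled error, all 3 were called in DNp63 mice, with adjusted p of 0.00059 to 0.00213 (limma). They were also called in a fit of the DNp63 groups alone (adjusted p of 0.000256 to 0.000547, limma) and by voom on the recovered reads (0.0415 to 0.0487).

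The genes of collagen V and Col27a1 had larger gate differences than those of collagens I and III in both mice, sizes that were not tested against each other. Col5a1 and Col5a2 encode chains of collagen V, which sets the diameter of collagen I fibrils. Col5a1 had values of 93 and 993 in the CD1 luminal, 450 and 259 in the DNp63 luminal, 2477 and 3402 in the CD1 basal and 4603 and 5270 in the DNp63 basal libraries, and Col5a2 of 93 and 1290, 655 and 419, 2724 and 3821, and 5930 and 7557. Here no luminal library reached a basal one. Col5a1 was higher in basal cells by 3.18 ± 0.84 (log2, SE, adjusted p = 0.0139, limma) in CD1 and 3.85 ± 0.84 (adjusted p = 0.00517, limma) in DNp63 mice, and Col5a2 by 3.15 ± 0.92 (adjusted p = 0.0221, limma) and 3.68 ± 0.92 (adjusted p = 0.01, limma). The CD1 difference was 1.53 for Col5a1 and 1.31 for Col5a2 without CD1 luminal replicate 1, and 4.85 and 5.00 without CD1 luminal replicate 2. A fit of the CD1 groups alone lost the CD1 call of Col5a2 (adjusted p = 0.069, limma), as did a fit without a filter (0.0551). The CD1 call of Col5a1 was lost without CD1 basal replicate 2 (adjusted p = 0.0813, limma), and that of Col5a2 without CD1 basal replicate 1 (0.0651) or 2 (0.111). In DNp63 mice the call of Col5a2 was lost without DNp63 basal replicate 2 (0.0616) or DNp63 luminal replicate 2 (0.0579). Col27a1, the chain of a fibrillar collagen of cartilage, had values of 11 and 49, 56 and 12, 422 and 292, and 376 and 440, and was higher in basal cells by 3.44 ± 0.62 (adjusted p = 0.00229, limma) and 3.56 ± 0.62. Of the chains of collagen XI, which is related to collagen V, Col11a1 differed by 0.85 ± 0.51 (adjusted p = 0.213, limma) in CD1 mice and was higher by 2.24 ± 0.51 (adjusted p = 0.00675, limma) in DNp63 mice, and Col11a2 was higher by 1.34 ± 0.24 (adjusted p = 0.00216, limma) and 1.60 ± 0.24. The CD1 difference of Col11a1 was -0.013 without CD1 luminal replicate 1 and 1.73 (called, adjusted p = 0.00686, limma) without CD1 luminal replicate 2, and its DNp63 call was lost without DNp63 basal replicate 2 (0.059).

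Over the class, 5 of 9 tested fibrillar members were higher in basal cells in CD1 mice and 6 of 9 in DNp63 mice, beside 24.2% and 24.9% of all tested genes. The CD1 number was 9 without CD1 luminal replicate 2, 5 without CD1 luminal replicate 1 and 2 without CD1 basal replicate 2. CD1 luminal replicate 2 over replicate 1 gave a median ratio of 11.9 for the 8 fibrillar members with enough signal, from 1.13 for Col11a2 to 19.2 for Col1a2. The same ratio had a median of 1.77 for collagen IV and 1.68 for the anchoring and transmembrane class. Among the other collagens it ranged from 0.872 for Col16a1 to 9.2 for Col6a6.

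Fibroblast markers were measured beside the fibrillar collagens, and CD140a, the product of Pdgfra, was excluded in the sort. The 12 markers summed to 7420 and 14226 in the CD1 luminal, 4421 and 2868 in the DNp63 luminal, 5609 and 14233 in the CD1 basal and 18499 and 21533 in the DNp63 basal libraries. In each of the 4 groups the replicate with the higher fibroblast sum also had the higher fibrillar sum, but CD1 luminal replicate 1 had a higher fibroblast and a lower fibrillar sum than the DNp63 luminal libraries. That excess was held by Dcn, the proteoglycan decorin, at 6581 and 7887, 2198 and 1444, 2376 and 7498, and 8716 and 8906. The other 11 markers, a sum taken after the values were seen, gave 839 and 6339, 2223 and 1424, 3233 and 6735, and 9783 and 12627, so CD1 luminal replicate 1 was then the lowest of the luminal libraries, as it was for the fibrillar sum. The fibrillar sums were 2703 and 35772, 15203 and 8831, 20323 and 45431, and 68177 and 91545. Lum, a proteoglycan of collagen fibrils, had values of 188 and 1953, 716 and 337, 380 and 1202, and 2744 and 4061, and Pdgfra of 196 and 1049, 397 and 251, 344 and 1018, and 1741 and 2978. No defining marker except Twist2 was at 0 in any library. Of the 11 tested fibroblast markers, 1 was called higher in the basal gate in CD1 mice and 7 in DNp63 mice. All tested genes called higher were 24.2% and 24.9%. The part of the fibroblast markers in the fibrillar differences was not tested.

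**Figure D3:**
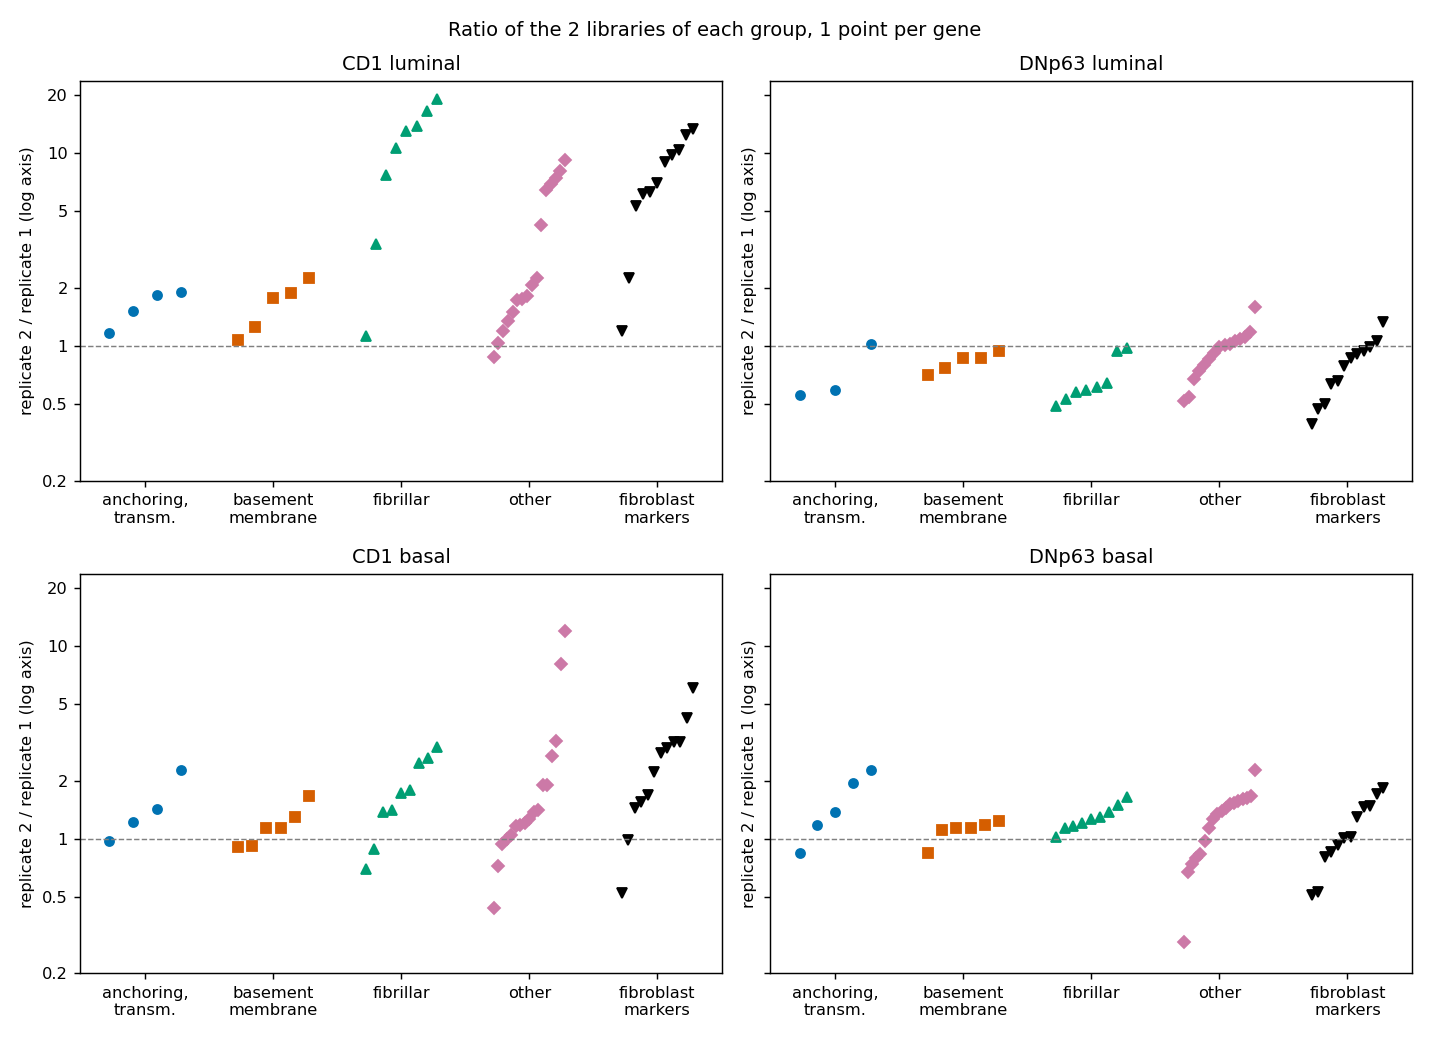
Ratio of replicate 2 to replicate 1 (log axis) for each collagen gene with enough signal and for the fibroblast markers, by class and group. In CD1 luminal cells 6 of 8 fibrillar members lie at 5-fold or more, the anchoring and transmembrane and the basement membrane classes lie below 2.3, and fibroblast markers reach 13.4; in DNp63 luminal and DNp63 basal cells all fibrillar ratios lie between 0.49 and 1.64.

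Ratios between chains of 1 collagen type varied less than the levels for some pairs and widely for others. Per kilobase of exon, Col1a1 stood at 2.29 to 3.33 times Col1a2 across the 8 libraries. Col6a1 stood at 1.66 to 2.66 times Col6a2. These ratios divide by all annotated exons joined, at 6563 bases for Col1a1 and 12426 for Col1a2. Col6a1 had 4380 bases and Col6a2 had 8326, so the size of such ratios depends on the annotation. The ratio of Col4a5 to Col4a6 was 1.21 to 1.46 in luminal and 0.898 to 1.11 in basal libraries, so these groups of libraries did not overlap. The ratio of Col4a3 to Col4a4, both low, ran from 0.191 to 0.545, and that of Col6a3 to Col6a1 from 0.353 to 6.0. No test was made on these ratios.

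The class of other collagens held the fibril-associated types, the microfibrillar collagen VI, the short-chain collagens VIII and X and the basement membrane proteoglycan types XV and XVIII. Col12a1 and Col14a1 encode collagens that attach to the surface of fibrils. Col12a1 had values of 373 and 504 in the CD1 luminal, 386 and 388 in the DNp63 luminal, 9843 and 10288 in the CD1 basal and 6542 and 4811 in the DNp63 basal libraries. It was higher in basal cells by 4.50 ± 0.18 (log2, SE, adjusted p = 1.09e-06, limma) in CD1 and 3.86 ± 0.18 (adjusted p = 1.61e-06, limma) in DNp63 mice. Both CD1 basal libraries lay above both DNp63 basal ones. Col14a1 had values of 160 and 1101, 325 and 298, 13318 and 9649, and 10655 and 14765, and was higher in basal cells by 4.70 ± 0.68 (adjusted p = 0.00068, limma) and 5.33 ± 0.68 (adjusted p = 0.000294, limma). Its CD1 difference was 3.35 without CD1 luminal replicate 1 and 6.08 without CD1 luminal replicate 2. Col16a1, another fibril-associated collagen, had values of 986 and 860, 783 and 853, 7083 and 8564, and 10149 and 13750, and was higher by 3.06 ± 0.18 (adjusted p = 5.38e-06, limma) and 3.87 ± 0.18 (adjusted p = 1.32e-06, limma).

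Col18a1, whose protein is cut to release endostatin, had values of 118 and 267 in the CD1 luminal, 347 and 278 in the DNp63 luminal, 2752 and 2595 in the CD1 basal and 4084 and 3404 in the DNp63 basal libraries. The basal libraries were all higher, by 3.84 ± 0.31 (log2, SE, adjusted p = 3.19e-05, limma) in CD1 and 3.58 ± 0.31 in DNp63 mice. Its relative Col15a1 had values of 79 and 586, 403 and 208, 1552 and 1793, and 2580 and 3902, with differences of 2.87 (adjusted p = 0.0122, limma) and 3.44 (0.00465). The CD1 call of Col15a1 was lost without CD1 basal replicate 2 (adjusted p = 0.0682, limma), and the CD1 difference was 1.49 without CD1 luminal replicate 1 and 4.27 without CD1 luminal replicate 2.

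Col8a1, which encodes a short-chain collagen of vessel and corneal membranes, was the member with the opposite pattern. It lies at chr16:57624258-57754737 on the minus strand. Its values were 2426 and 4383 in the CD1 luminal, 2584 and 4117 in the DNp63 luminal, 609 and 775 in the CD1 basal and 380 and 368 in the DNp63 basal libraries. The luminal groups overlapped fully and lay above every basal library. Col8a1 fell in the basal gate by 2.25 ± 0.30 on the log2 scale (SE, adjusted p = 0.000421, limma) in CD1 and by 3.07 ± 0.30 (adjusted p = 6.32e-05, limma) in DNp63 mice. Its partner chain gene Col8a2 ranged from 36 to 83 and was not called in any comparison.

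Collagen VI is built from the products of Col6a1, Col6a2 and 1 further chain, most often that of Col6a3. Col6a1 had values of 227 and 1464 in the CD1 luminal, 733 and 400 in the DNp63 luminal, 3265 and 3861 in the CD1 basal and 5222 and 7997 in the DNp63 basal libraries. Col6a2 had values of 167 and 1349, 619 and 458, 2331 and 3282, and 4375 and 7320. Both followed the fibrillar pattern, with CD1 luminal replicate 2 above replicate 1 by 6.45-fold and 8.08-fold. They were higher in basal cells by 2.58 ± 0.70 (log2, SE, adjusted p = 0.0158, limma) and 2.50 ± 0.76 (0.0261) in CD1 mice and by 3.59 ± 0.70 (0.00296) and 3.42 ± 0.76 (0.00574) in DNp63 mice. The CD1 calls of both were lost without CD1 basal replicate 1 (adjusted p = 0.0562 and 0.0682, limma) or replicate 2 (0.0832 and 0.13). Without CD1 luminal replicate 1 the CD1 differences were 1.27 and 1.03, and without CD1 luminal replicate 2 they were 3.92 and 3.98. A fit of the CD1 groups alone also lost the CD1 call of Col6a2 (adjusted p = 0.0729, limma), as did a fit without a filter (0.0631). Col6a4, a chain gene with 4 and 4, 9 and 0, 147 and 392, and 481 and 382, reached the minimum through the basal libraries alone, so its higher basal level was part of how it came to be tested, and it held only a few luminal reads. Over the class, 12 of 19 tested members were higher and 1 lower in basal cells in CD1 mice, and 13 were higher and 1 lower in DNp63 mice. The shares of all tested genes were 24.2% higher and 20.1% lower in CD1 mice, and 24.9% and 24.4% in DNp63 mice. The higher counts include Col6a4, Col28a1 and, in DNp63 mice, Col6a5, which all reached the minimum through the basal libraries alone.

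Between the luminal groups, which shows what the collagen genes did in GFP+ luminal cells of DNp63 mice, 1 member was higher and 1 lower of 39, beside 2.66% of all tested genes called higher and 1.78% called lower. The higher one was Col6a3 (chr1:90765923-90843971, minus strand), with values of 937 and 1942 in the CD1 luminal, 5906 and 6550 in the DNp63 luminal, 3150 and 5941 in the CD1 basal and 8611 and 9800 in the DNp63 basal libraries. The DNp63 luminal libraries were above both CD1 luminal ones and within the range of the basal libraries, close to or above the CD1 basal level. Col6a3 was higher in DNp63 than in CD1 luminal cells by 2.14 ± 0.36 (log2, SE, adjusted p = 0.0138, limma), or 4.40-fold. It was called without either CD1 luminal library, at 1.62 (adjusted p = 0.0248, limma) and 2.66 (0.00469), and was not called without DNp63 luminal replicate 1 (2.21, 0.0716) or replicate 2 (2.07, 0.11). Between the gates it was higher in basal cells by 1.66 ± 0.36 (adjusted p = 0.00561, limma) in CD1 mice and differed by 0.59 ± 0.36 (adjusted p = 0.203, limma) in DNp63 mice, and the difference between these 2 was not called (-1.07 ± 0.51, adjusted p = 0.52, limma interaction). Both DNp63 basal libraries lay above both DNp63 luminal ones for Col6a3. A fit of the DNp63 groups alone called its DNp63 gate difference, at 0.62 (adjusted p = 0.0033, limma).

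The chains that assemble with it did not show the same difference. Col6a1 differed between the luminal groups by -0.16 ± 0.70 (log2, SE, adjusted p = 0.95, limma) and Col6a2 by 0.09 ± 0.76 (0.974), and with 1 library left out these moved between -1.48 and 1.17 and between -1.39 and 1.57. Per kilobase of exon, Col6a3 stood at 2.95 and 6.0 times Col6a1 in the DNp63 luminal libraries, beside 1.51 and 0.486 in the CD1 luminal and 0.353 to 0.604 in the basal libraries. Col6a3 over Col6a2 was 6.64 and 9.95 in the DNp63 luminal libraries and between 0.932 and 3.9 in the other 6. Whether Col6a3 differed from its partner chains was not tested. The fibroblast marker sums were 4421 and 2868 in the DNp63 and 7420 and 14226 in the CD1 luminal libraries, and without Dcn they were 2223 and 1424 against 839 and 6339, so the groups then overlapped. Their part in the Col6a3 difference was not tested.

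The lower one was Col25a1 (chr3:130131501-130599877, plus strand), a transmembrane collagen known from neurons. Its values were 125 and 230 in the CD1 luminal, 14 and 16 in the DNp63 luminal, 60 and 136 in the CD1 basal and 123 and 281 in the DNp63 basal libraries. The DNp63 luminal libraries held 5 and 4 reads, below all others, and the other 6 libraries held 13 to 62 reads and overlapped. Col25a1 fell in DNp63 luminal cells by 3.00 ± 0.51 on the log2 scale (SE, adjusted p = 0.0149, limma). This call was lost without CD1 luminal replicate 2 (adjusted p = 0.0606, limma), DNp63 luminal replicate 1 (0.0863) or DNp63 luminal replicate 2 (0.102), and in a count-based fit of the recovered reads (voom, 0.0597). In basal against luminal cells it differed by -0.86 ± 0.51 (adjusted p = 0.207, limma) in CD1 mice and was higher by 3.10 ± 0.51 (adjusted p = 0.00127, limma) in DNp63 mice. The difference between these was 3.96 ± 0.73 (adjusted p = 0.0722, limma interaction). It was called without CD1 luminal replicate 1 (4.42, adjusted p = 0.0456, limma).

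**Figure D4:**
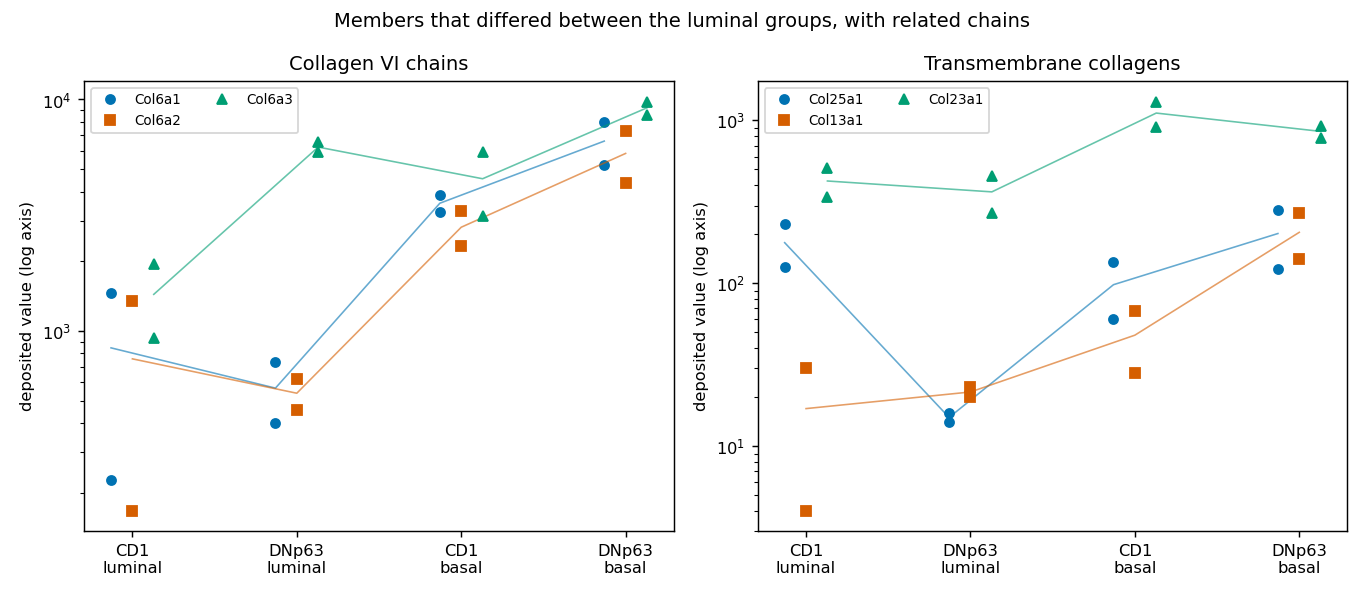
Deposited values (log axis) in the 8 libraries for the collagen VI chains (left) and the transmembrane collagens Col25a1, Col13a1 and Col23a1 (right), 1 point per library with lines through the group means. The DNp63 luminal points of Col6a3 (5906 and 6550) lie above its CD1 luminal points while those of Col6a1 and Col6a2 do not, and the DNp63 luminal points of Col25a1 (14 and 16) lie below all other groups.

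None of the remaining 37 tested members was called between the luminal groups. The difference of Col17a1 was 0.27 ± 0.13 (log2, SE, adjusted p = 0.334, limma). Both DNp63 luminal libraries lay above both CD1 ones for Col17a1, as for 5 of 39 members and 4781 of 16900 tested genes. Trp63 was higher by 4.46 ± 0.18 (adjusted p = 2.17e-05, limma). The count depended on the CD1 luminal libraries: without replicate 1 there were 6 calls, 1 higher and 5 lower, and without replicate 2 there were 6, all higher. Col5a1 and Col5a2 were among the lower in the first case, at -1.58 and -1.35, and among the higher in the second, at 1.74 and 2.34. Without either DNp63 luminal library there were 0 calls.

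Between the basal groups 0 of 39 members were called higher or lower by limma, beside 0.195% and 0.521% of all tested genes. Voom on the recovered reads also called 0. The difference was positive for 32 of 39 members, with a median of 0.52 on the log2 scale, while the median of all tested genes was -0.04. Both DNp63 basal libraries lay above both CD1 basal ones for 21 members, beside 19.8% of all tested genes, and below them for 4 members, beside 22.8%. Col7a1 had the values 4730 and 5769 against 9610 and 13213, a difference of 1.09 ± 0.34 (log2, SE, adjusted p = 0.255, limma), and was called in a fit of the basal libraries alone (1.13, adjusted p = 0.0473, limma). Col17a1 differed by 0.52 ± 0.13 (adjusted p = 0.152, limma), Col16a1 by 0.58 ± 0.18 (0.239) and Col6a3 by 1.07 ± 0.36 (0.293). On the other side, Col12a1 differed by -0.86 ± 0.18 (adjusted p = 0.0939, limma) and Col8a1 by -0.88 ± 0.30 (0.296). Without CD1 luminal replicate 1 or 2, which changes only the pooled spread and the scaling, Col12a1 was called at -0.81 (adjusted p = 0.0426 and 0.0428, limma).

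All 9 tested fibrillar members had a positive difference between the basal groups, with a median of 0.92, and none was called. Their summed values were 2.43 times as large in DNp63 as in CD1 basal cells, and those of the fibroblast markers 2.02 times, with 9 of 11 tested markers positive. The summed values of the anchoring and transmembrane class were 1.64 times as large and those of the basement membrane class 1.22 times. CD1 basal replicate 1 had the lowest fibrillar and the lowest fibroblast sum of the 4 basal libraries. The fibrillar sums were 20323 and 45431 and the fibroblast sums 5609 and 14233 in the CD1 basal replicates. Both ratios therefore depend on which CD1 basal library is used.

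DNp63 basal cells against CD1 luminal cells, a comparison that shares its libraries with those above, gave 29 members higher and 2 lower, Col8a1 and Col10a1, beside 25.1% and 22.2% of all tested genes. Among the 35 members that reached the minimum on the luminal libraries alone, 26 were higher and 2 lower. The median was 2.96 on the log2 scale over the members and -0.01 over all genes. Col7a1 had the largest difference, 6.33 ± 0.34 (SE, adjusted p = 2.72e-06, limma), followed by Col4a2 at 5.36 ± 0.26, Col6a4, with few luminal reads, at 5.17 ± 0.53 and Col17a1 at 5.16 ± 0.13. Of these, Col6a4 entered the tests only through the basal libraries. All 9 fibrillar members were called here, but Col1a1 (2.96 ± 1.05, adjusted p = 0.0453, limma), Col1a2 (3.11 ± 1.1, 0.0443) and Col3a1 (2.78 ± 1.01, 0.0482) only narrowly. Without CD1 luminal replicate 1 their differences were 0.99, 1.05 and 0.98 with adjusted p of 0.148, 0.143 and 0.212 (limma), and without CD1 luminal replicate 2 they were 5.03, 5.29 and 4.69. They also lost the call without any 1 library of the other 3 groups. The calls of Col1a1, Col1a2 and Col3a1 were lost too in a fit of the 2 groups alone, without a filter and with a pseudocount of 1. Col10a1 fell by 1.36 ± 0.43 on the log2 scale (SE, adjusted p = 0.0302, limma), a call lost without CD1 luminal replicate 2 (0.168), DNp63 basal replicate 2 (0.172) or DNp63 luminal replicate 1 (0.0514).

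The interaction asks whether the gate difference itself differed between the mice. Of the 39 members 0 were called, beside 0.343% of all tested genes, and 0 were called by voom. Col25a1 had the largest value, given above. Col9a3, a chain of the fibril-associated collagen IX, had 288 and 297 in the CD1 luminal, 211 and 216 in the DNp63 luminal, 815 and 1114 in the CD1 basal and 1467 and 2287 in the DNp63 basal libraries, with an interaction of 1.42 (adjusted p = 0.149, limma). The interaction gave 5 calls without CD1 luminal replicate 1, all positive: Col14a1, Col25a1, Col5a1, Col5a2 and Col6a2.

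Genes that act on or bind collagens were read from 6 lists, and each count stands beside 24.2% of all tested genes called higher and 20.1% lower in CD1 mice, and 24.9% and 24.4% in DNp63 mice. Of 19 genes for procollagen folding and modification, 11 were higher in the basal gate in CD1 and 12 in DNp63 mice, and 0 were lower. Serpinh1, the collagen-specific chaperone, had values of 1465 and 1738 in the CD1 luminal, 1463 and 1624 in the DNp63 luminal, 6694 and 6963 in the CD1 basal and 9930 and 10327 in the DNp63 basal libraries, a difference of 2.08 (log2, adjusted p = 6.25e-06, limma) in CD1 and 2.74 in DNp63 mice. Colgalt2, a collagen galactosyltransferase, was higher by 4.09 and 4.63, Plod2, a lysyl hydroxylase, by 3.82 and 3.57, and P3h1, a prolyl 3-hydroxylase, by 2.44 and 3.80. The general enzyme P4hb, which also folds other proteins, was not among the genes called in CD1 mice.

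Of 7 tested genes for procollagen cleavage outside the cell, 4 were higher in CD1 mice and 5 higher and 1 lower in DNp63 mice. Adamts2, which removes the amino propeptide, was higher by 2.88 (log2, adjusted p = 0.0185, limma) and 3.04, and Pcolce, an enhancer of the carboxyl cut, by 1.56 and 2.54. Both CD1 calls were lost without CD1 basal replicate 2 (adjusted p = 0.0944 and 0.0815, limma), and that of Adamts2 also without CD1 basal replicate 1 (0.0615), and in DNp63 mice without DNp63 basal replicate 1 (0.0622), DNp63 basal replicate 2 or DNp63 luminal replicate 2 (0.0684 each). The CD1 differences of Adamts2 and Pcolce were 1.27 and 0.89 without CD1 luminal replicate 1, and 4.51 and 2.25 without CD1 luminal replicate 2. A fit of the CD1 groups alone also lost the CD1 call of Adamts2 (adjusted p = 0.0629, limma). Of 7 crosslinking genes, 3 were higher and 1 lower in CD1 mice, within 2 genes of what the shares over all tested genes give, and 5 higher and 1 lower in DNp63 mice. Pxdn, which crosslinks collagen IV, was higher by 2.48 (adjusted p = 4.31e-05, limma) and 1.83, the lysyl oxidase relative Loxl3 by 3.06 and 3.63, and Tgm2, a transglutaminase, fell by 1.19 and 1.77 on the log2 scale.

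Among 8 partners of hemidesmosomes and anchoring fibrils, 6 were higher and 1, Plec, lower in CD1 mice, and 6 were higher in DNp63 mice. Lama3 and Lamb3, chains of the laminin that binds collagens XVII and VII, were higher by 3.43 (log2, adjusted p = 3.65e-06, limma) and 1.68 in CD1 mice and by 4.73 and 3.31 in DNp63 mice. In DNp63 against CD1 luminal cells Lamb3 fell by 1.20 on the log2 scale (adjusted p = 0.00239, limma). Lama3 fell by 0.85 (adjusted p = 0.0375, limma), a call lost in 6 of the 8 fits with 1 library left out, with adjusted p of up to 0.237. The interaction of Lamb3 was 1.63 (adjusted p = 0.0201, limma), and was not called without any 1 of the basal or DNp63 luminal libraries (0.0939 to 0.119). Of 8 basement membrane partners of collagen IV, 7 were higher in each kind of mouse, among them Hspg2, perlecan, by 3.79 (adjusted p = 9.31e-07, limma) and 4.18, Lamc1 by 2.15 and 2.76 and Sparc by 4.19 and 4.57. Agrn, agrin, rose between the gates by 0.92 and 1.79 and fell in DNp63 luminal cells by 0.75 (adjusted p = 0.0274, limma), a call lost in 5 of the 8 fits with 1 library left out, with adjusted p of up to 0.189. Of 8 tested collagen receptors, 3 were higher in CD1 mice, also within 2 genes of that share, and 5 in DNp63 mice, with Itga1, the alpha 1 integrin chain, higher by 6.09 (adjusted p = 3.03e-06, limma) and 5.71 and Ddr2 by 2.73, a call lost without CD1 basal replicate 2 (0.0659), and 3.36. The CD1 difference of Ddr2 was 1.47 without CD1 luminal replicate 1 and 4.01 without CD1 luminal replicate 2. Between the basal groups 0 genes of the 6 lists were called. Most of the endothelial, pericyte and adipocyte markers given above were higher in the basal gate too, and so were 7 of 11 fibroblast markers in DNp63 mice. In CD1 mice 1 of 11 fibroblast markers was called higher, and 9 had a positive difference, with a median of 0.36. The CD1 fibroblast sum was 0.917 times as large in the basal as in the luminal gate, with most of the luminal sum held by Dcn. Without Dcn it was 839 and 6339 in the CD1 luminal and 3233 and 6735 in the CD1 basal libraries. The part of all these markers in the counts of these lists was not tested.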

How the data were processed

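Total RNA of 8 sorted mammary libraries was sequenced after Ovation Solo library preparation, per the labels' protocols. The submitters' processing notes name STAR, HTSeq, GRCm38 and mm10; no source used here gives versions, annotation or use of strand. The authors deposited 1 table of gene values, treated as a score: counts scaled to 20000000 per library and rounded up, as found from the values. Whole reads were recovered from the steps for 99.81% to 99.93% of values (29.2% to 48.8% by chance), and their totals give the depth.

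Here the deposited score was scaled by trimmed means of M values (trims of 30% and 5%), transformed as log2(value + 8) and fitted with limma 3.58.1 in R 4.3.3 with a mean-dependent prior, 4 group means and all 8 libraries (4 residual degrees of freedom). The 16900 genes with at least 40 in 2 libraries were tested, two-sided, with Benjamini-Hochberg adjustment. Folds are on the log2(value + 8) scale, which understates low genes. The procedure was tested on simulated data with the same spread for all genes. That run cannot speak for genes whose replicates differed widely, such as the fibrillar members in CD1 luminal cells.

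The members and lists were chosen with earlier results of these data known. Values per library were given for Col17a1, Col7a1 and Col4a2, for up to 4 tested members with the highest mean per class, for members called between the mice, and for the called member of each class with the largest difference in each direction; other members described were chosen after their values were seen. Exon lengths and gene positions are from GENCODE M21 (GRCm38), where all 44 members were found. The exon length joins the exons of all annotated transcripts of a gene. Alternatives were median-of-ratios scaling, no scaling, pseudocounts of 1 and 32, no filter, a minimum of 100, only the 2 groups compared, a replicate block, voom on the recovered reads and leaving out each library.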

Additional observations from a re-analysis of the deposited data

How the results depend on the processing

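The number of collagen genes called between the gates stayed within 1.5 times the main number in CD1 and DNp63 mice and for DNp63 basal against CD1 luminal cells under every alternative run, with 1 library left out giving 18 to 32, 26 to 32 and 25 to 32 calls. The lower end in CD1 mice, 18, came without CD1 basal replicate 2, and the upper end, 32, without CD1 luminal replicate 2. Between the luminal groups, 2 calls became 1 with voom on the recovered reads and 0 to 6 with 1 library left out. Between the basal groups, 0 became 1 when only the 2 groups compared were fitted and 0 to 1 with 1 library left out.

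Same-numbered libraries deviated together within a mouse, at r = 0.341 in CD1 and 0.267 in DNp63 mice, and hardly between mice (-0.014 to 0.04), so the numbers were not taken as pairs over the design. The interaction, 0 calls, became 1 with a replicate block, 3 with a replicate block within each kind of mouse (2 positive, 1 negative, chosen after seeing the data) and 0 to 5 with 1 library left out. The interaction of Col25a1 was called with a replicate block (adjusted p = 0.0251, limma). The block within each kind of mouse called the interactions of Col25a1 (adjusted p = 0.00425, limma), Col9a3 (0.0266) and Col6a3 (0.00581). It also called the CD1 gate differences of Col1a1 (0.0408), Col1a2 (0.0159), Col3a1 (0.0293), Col11a1 (0.0112), Col4a4 (0.0108) and Col13a1 (0.0268). In DNp63 mice it called the gate differences of Col6a3 (0.000853), Col1a1 (0.000802), Col1a2 (0.000921) and Col3a1 (0.000426). With the plain replicate block Col1a1, Col1a2 and Col3a1 were called in DNp63 mice (0.0287, 0.0297 and 0.0341). The cause of these changes was not tested.

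Among single gene differences in the text, 2246 alternative values kept direction and call, 99 lost the call, 44 gained it and 11 turned sign, all 11 with 1 library left out. With 1 library left out, the CD1 gate difference ranged from -0.69 to 3.36 for Col1a1, -0.39 to 3.84 for Col1a2, -0.64 to 3.07 for Col3a1 and -0.013 to 1.73 for Col11a1, and the luminal difference from -1.58 to 1.74 for Col5a1, -1.35 to 2.34 for Col5a2, -1.48 to 1.17 for Col6a1 and -1.39 to 1.57 for Col6a2. With 2 libraries per group, and a lone library assumed to vary like the other groups when its partner is left out, small differences were not detectable, and members with a few reads in luminal cells carry large counting error.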
